A study of Macaca fascicularis with 18 samples.

Results

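Genes shared by kidney and liver but not by brain were defined by their median RPKM per tissue, and 202 of the 29324 Ensembl genes of the cynomolgus monkey (*Macaca fascicularis*) table met the rule. RPKM are the reads on a gene divided by the length of the gene and by the reads of the library, so that levels of different genes can be set side by side on one scale. The rule asked for kidney and liver medians of at least 20 RPKM each, both at least 8-fold over the brain median and less than 8-fold apart from each other. All 202 genes passed the filter on low values used for the tests, at least 1 RPKM in at least 3 libraries, which 15275 genes passed. Cerebral cortex, kidney cortex and liver, here called brain, kidney and liver, were taken from 2 adult female animals, A1 and A2, which were anesthetized with ketamine and midazolam and euthanized with pentobarbital before harvest, with 3 samples per tissue and animal and 1 RNA-Seq library per sample. Libraries are named by tissue, animal and sample number. The 3 samples of an animal are repeated samples of one individual, so that a difference between A1 and A2 describes these animals, and its p-values measure the spread between samples.

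The renal proximal tubule, which makes up much of the kidney cortex, and the hepatocyte are both epithelial cells with a heavy metabolic load. As textbook background, both can make glucose, oxidise fatty acids, break down amino acids, conjugate foreign compounds and take up organic anions, and both depend on transcription factors of the hepatocyte nuclear factor families, which neurons and glia of the cerebral cortex largely lack. Which of the 202 genes belong to these pathways was not analysed here, because 0 of the 29324 identifiers could be paired with a gene symbol. For the same reason the tissue labels were not checked against marker genes, and no promoter or protein sequence is shown. Apart from 4 identifiers, genes are therefore described by their place in a ranking. In bulk tissue, fewer cells of a type and less RNA per cell cannot be told apart.

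Relative to the median library, the shallowest libraries were kidney A2-2 and brain A2-2 with a depth of 0.343 each, liver A1-1 was the deepest with 2.32, and the depth lay between 0.765 and 1.15 in the other 15 libraries. The library labelled liver A2-1 stood apart from the other liver libraries and was left out by the rule. A single gene held 28.4% of its summed RPKM, and the 256 genes at least 8-fold higher in liver than in both other tissues had a median log2 ratio of -6.17 to the other livers in it, so that its values go against its label. What tissue it holds was not tested, and every value given for liver A2-1, or with it in a fit, is that of a library whose label is in doubt. It is given separately below, and the values that follow rest on the other 17 libraries unless stated otherwise. No library was a copy of another one: leaving aside genes at 0 throughout, the most alike pair had equal values for 19.2% of genes.

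As the rule used the tissue medians, the levels are a description without a test. The kidney medians of the 202 genes ranged from 20.3 to 4684 RPKM with a median of 106.6, and the liver medians from 20.03 to 4116 RPKM with a median of 92.1. The brain medians ranged from 0 to 56.4 RPKM with a median of 2.40. Of the 202 genes, 73 had a brain median below 1 RPKM, among them 8 with a brain median of 0, and 129 reached 1 RPKM or more. None was at 0 in all 6 brain libraries. The set thus held both genes that were barely read in brain and 54 genes with a brain median of at least 5 RPKM, which met the rule by high levels in the other tissues. The 13 genes with a brain median of 20 RPKM or more had a median of 295.7 RPKM for the lower of the kidney and liver medians, against 47.7 RPKM for the 65 genes between 0 and 1 RPKM in brain. The rule ties these levels together, since a gene with a high brain level had to be higher still in both other tissues.

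The limits of the rule cut through a continuous range of values. Just inside the limit of 8-fold over brain were genes at 8.01 and 8.09 times the brain median, and just outside were genes at 7.98 and 7.94 times. At the floor of 20 RPKM the nearest genes inside had a lower median of 20.03 and 20.3 RPKM, and the nearest outside 19.9 and 19.8 RPKM. The largest ratios between kidney and liver inside the limit were 7.77 and 7.74, and the smallest outside were 8.05 and 8.14. With 4-fold over brain in place of 8-fold, 334 genes met the rule, and with 16-fold 129 did.

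**Figure D1:**
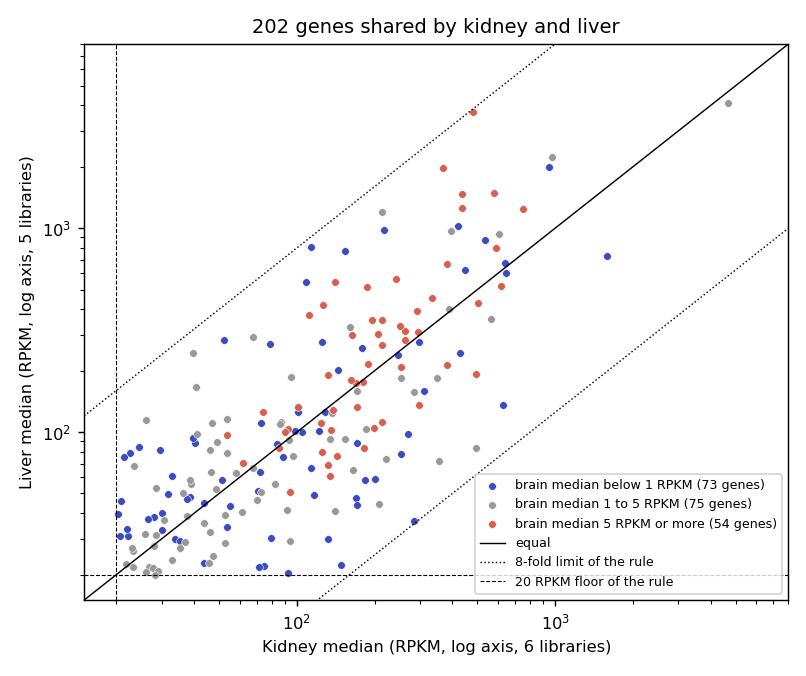
Median RPKM of each of the 202 genes in kidney (x axis, 6 libraries) and liver (y axis, 5 libraries, without liver A2-1), both on log axes, coloured by the brain median. Genes lie on both sides of the line of equal levels, 95 higher in kidney and 107 higher in liver as deposited (23 higher in kidney after median-of-ratios scaling), and the gene at the upper right has 4684 RPKM in kidney and 4116 RPKM in liver.

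The gene with the highest lower median was the most abundant of the set in both organs. Its RPKM were 3652, 4010 and 3785 in kidney of A1, 5359, 5472 and 5413 in kidney of A2, 3799, 4116 and 4253 in liver of A1, and 4369 and 3962 in liver A2-2 and A2-3. Kidney and liver values thus overlapped, with the A2 kidney libraries above all others. In brain the same gene had 0.081 to 1.37 RPKM in the 3 A1 libraries, 0.082 RPKM in A2-1, 22.7 RPKM in A2-2 and 4.55 RPKM in A2-3. It made up 11.8% of the summed kidney medians of the set and 7.68% of the summed liver medians. In kidney, 27 genes held 50% of the summed medians of the set, and in liver 17 genes did. Of the 10 genes with the highest kidney medians, 4 were also among the 10 with the highest liver medians. Across the 202 genes, which are no independent replicates and share libraries and length scaling, Spearman's rho between kidney and liver medians was 0.740, where the limit of 8-fold on their ratio contributes. It was 0.648 across the 1847 genes with at least 20 RPKM in both tissues.

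In the values as deposited, the ratio of the kidney and liver medians, which the rule bounds, was within 1.5-fold for 94 genes and within 2-fold for 135. With median-of-ratios factors 69 genes were within 2-fold, and with quantile-normalized values 125. As deposited, the ratio was over 4-fold for 8 genes towards kidney and 12 towards liver. The gene leaning most to kidney had medians of 284.6 RPKM in kidney and 36.6 RPKM in liver, and the gene leaning most to liver had 482.0 RPKM in kidney and 3730 RPKM in liver. For 55 genes all 6 kidney libraries lay above all 5 liver libraries, where 67.7% of all 15275 genes did, and for 51 genes all liver libraries lay above all kidney libraries, where 7.48% of all genes did. The libraries of the other 96 genes overlapped. The rule used this contrast and bounded its size, so that nothing is read from these counts. The median log2 ratio of kidney over liver was -0.06 in the set, and on the log2(RPKM + 1) scale it was -0.05, against 0.90 over all 15275 genes.

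More genes were higher in liver than in kidney under each of the 3 scalings, and how many depended on the scaling. Dividing the values by median-of-ratios factors moved the median of all genes from 0.90 to 0.03. For the same 202 genes the median log2 ratio of kidney over liver was then -1.32, with 23 genes higher in kidney, and with quantile-normalized values it was -0.45, with 62 genes higher in kidney. The rule bounds this ratio, so that its distance from the median of all genes is a description.

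Taken as a share of the summed RPKM of a library, the 202 genes, 0.689% of the genes of the table, made up 0.239% ± 0.0144 in brain (SD, n = 6), 7.14% ± 0.616 in kidney (SD, n = 6) and 10.1% ± 0.484 in liver (SD, n = 5). In kidney the share was 6.53%, 6.75% and 6.61% in the A1 libraries and 7.90%, 7.19% and 7.86% in the A2 libraries. All A2 kidney libraries were thus above all A1 kidney libraries. In liver the order was the opposite, with 10.2%, 10.6% and 10.3% in the A1 libraries and 9.84% and 9.35% in liver A2-2 and A2-3. In brain the animals overlapped, with 0.221% to 0.263% in A1 and 0.231% to 0.246% in A2. Such shares weigh the most abundant genes most. The median of the 202 genes overlapped between the animals in kidney, with 98.2 to 105.8 RPKM in A1 and 102.1 to 109.4 RPKM in A2. In liver it did not, with 87.2 to 96.5 RPKM in A1 and 82.9 and 79.4 RPKM in liver A2-2 and A2-3.

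**Figure D2:**
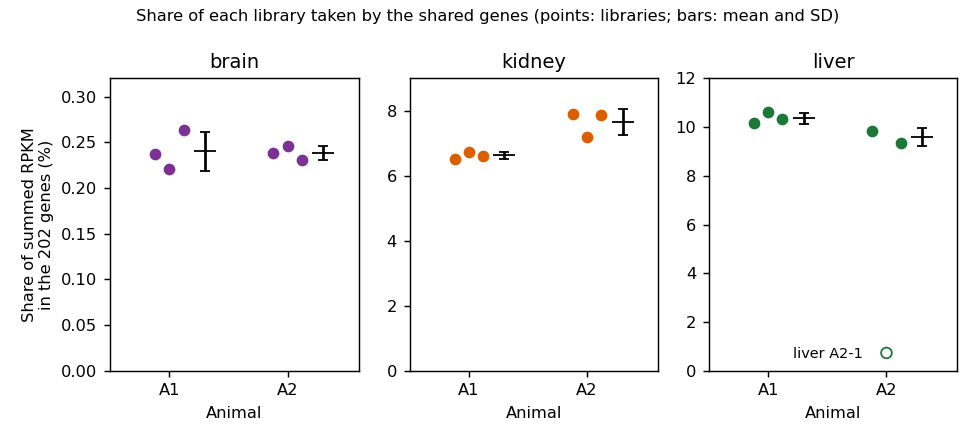
Share of the summed RPKM of each library taken by the 202 genes, in percent, by animal, with a separate y axis for each tissue. Filled points are libraries, bars give mean and SD per animal, and the open point is liver A2-1, which is not part of the mean. Kidney shares are 7.19% to 7.90% in A2 and 6.53% to 6.75% in A1, while liver shares are 9.35% to 9.84% in A2 and 10.2% to 10.6% in A1.

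Differences between the animals were not used by the rule and were tested for all 15275 genes with limma (log2(RPKM + 1), 6 group means, Benjamini-Hochberg adjustment). Calls required an adjusted p below 0.05 together with a change of 1 or more, up or down, on the log2 scale. In kidney 9 of the 202 genes were called, 4.46%, where 2.6% of all genes were. Of these, 7 were higher in A2 (1.11% of all genes) and 2 higher in A1 (1.49%). In liver 15 were called, 7.43%, where 3.07% of all genes were. Of these, 5 were higher in A2 (1.71% of all genes) and 10 higher in A1 (1.36%). In brain 8 were called, 3.96%, where 1.75% of all genes were. Of these, 5 were higher in A2 (0.851% of all genes) and 3 higher in A1 (0.897%). Among the 1847 genes with at least 20 RPKM in kidney and in liver, which include the set, 1.79% were called in kidney (0.92% higher in A2, 0.866% higher in A1), 3.09% in liver (1.25% and 1.84%) and 1.3% in brain (0.596% and 0.704%). All 8 brain calls were among the 137 genes of the set with a brain mean of at least 1 RPKM (5.84%), where 1.97% of the 13230 such genes of the table were called. The other 65 genes passed the filter on low values mainly through kidney and liver. The absolute log2 difference between the animals had a median of 0.31 in kidney and 0.37 in liver over the 202 genes, and of 0.17 and 0.19 over all genes. Over the 1847 genes it was 0.19 in kidney and 0.24 in liver. The SD between samples of one animal and tissue (log2 scale) had a median of 0.13 in kidney and 0.09 in liver over the set. This was below the 0.14 and 0.11 over all genes. In brain it was 0.15, above the 0.12 over all genes. Over the genes with a median of at least 20 RPKM in the tissue in question, the SD was 0.13 in kidney, 0.10 in liver and 0.10 in brain. The kidney value of the set was thus that of abundant genes. With liver A2-1 in the fit, 2 genes of the set (0.99%) were called in kidney and 2 (0.99%) in brain, below the 1.69% and 1.41% of all genes, while 22 (10.9%) were called in liver against 4.14%. With a pseudocount of 0.1 RPKM, 28 genes of the set (13.9%) were called in brain against 4.26% of all genes, 14 of them with a brain mean below 1 RPKM, but in kidney 4.46% against 4.86% and in liver 5.45% against 7.48%. Whether the set had a higher share of calls than all genes thus depended on these settings.

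Of the 202 genes, 3 were called between the animals in both kidney and liver, 1.49% of the set, and 2 of them changed in the same direction. Of all 15275 genes, 72 (0.471%) were called in both, 53 of them in the same direction. One of these 2 was higher in A2, with a log2 fold change of 1.06 ± 0.16 (SE) in kidney and 1.46 ± 0.18 in liver, and the other was higher in A1, with -1.17 ± 0.15 in kidney and -1.27 ± 0.16 in liver. The third was ENSMFAG00000031634, which changed in opposite directions. Across the 202 genes the animal differences in kidney and in liver, which come from different libraries of the same animals, had a Pearson correlation of 0.15 and a Spearman correlation of 0.20, and across all 15275 genes these were 0.20 and 0.24.

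In kidney, ENSMFAG00000034299 had 80.1, 90.9 and 63.7 RPKM in A1 and 390.3, 343.2 and 385.1 RPKM in A2. The groups did not overlap. With 2.25 ± 0.12 (SE) on the log2 scale this was the largest of the animal differences called in kidney within the set (limma, adjusted p = 3.4e-09). In liver it had 979.9, 877.5 and 838.5 RPKM in A1 and 1550 and 1546 RPKM in liver A2-2 and A2-3. The A2 libraries were again higher, by 0.79 ± 0.13 on the log2 scale, below the size threshold (limma, adjusted p = 0.00042). In brain, where levels were low, A1 had 0.091 to 0.176 RPKM and A2 had 0.749 to 1.28 RPKM. The kidney call was lost with liver A2-1 in the fit (limma, adjusted p = 0.19), where the fold change was again 2.25. The second gene named for its rise in kidney, ENSMFAG00000031634, had 20.9, 20.4 and 24.5 RPKM in A1 and 90.5, 77.8 and 88.5 RPKM in A2, a log2 fold change of 1.92 ± 0.14 (limma, adjusted p = 9.0e-08). In liver its order was the opposite, with 67.2, 63.8 and 58.3 RPKM in A1 and 25.6 and 24.4 RPKM in liver A2-2 and A2-3, so that it fell by 1.30 ± 0.15 on the log2 scale (limma, adjusted p = 1.6e-05). In A1 this gene was thus higher in liver than in kidney, and in A2 higher in kidney than in liver, without overlap in either animal.

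ENSMFAG00000045636 had the largest of the differences called in liver within the set. It had 54.7, 49.6 and 47.7 RPKM in A1 and 8.12 and 8.58 RPKM in liver A2-2 and A2-3, and fell by 2.46 ± 0.11 on the log2 scale (limma, adjusted p = 5.8e-10). The kidney libraries of the animals overlapped, with 149.6 to 181.7 RPKM in A1 and 165.8 to 188.8 RPKM in A2. ENSMFAG00000039194 had 53.8, 50.2 and 46.2 RPKM in liver of A1 and 15.8 and 8.04 RPKM in liver A2-2 and A2-3. It fell by 2.05 ± 0.39 on the log2 scale (limma, adjusted p = 0.0014), and its kidney libraries overlapped between 10.997 and 34.1 RPKM. With a pseudocount of 0.1 RPKM the liver call of ENSMFAG00000039194 was lost (limma, adjusted p = 0.059), at a fold change of -2.14.

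**Figure D3:**
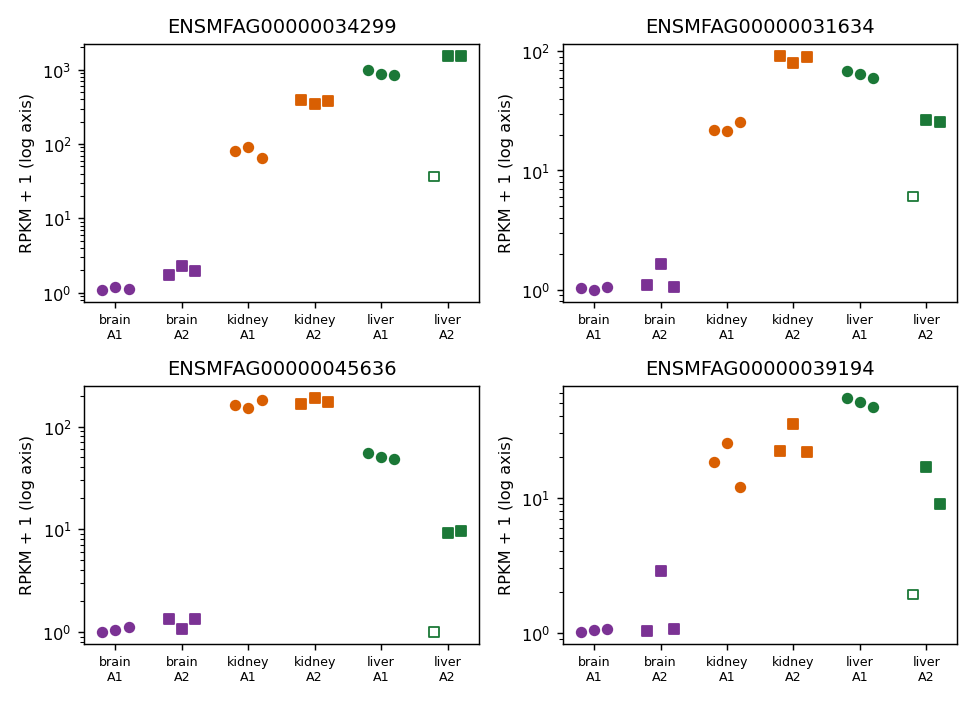
RPKM + 1 on log axes of the 4 genes named by identifier, by tissue and animal, with 1 point per library (circles A1, squares A2, open square liver A2-1). ENSMFAG00000031634 is higher in A2 in kidney (77.8 to 90.5 against 20.4 to 24.5 RPKM) and lower in A2 in liver, while ENSMFAG00000045636 and ENSMFAG00000039194 are lower in A2 in liver with overlapping kidney libraries.

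The difference of these differences was tested directly, as the A2 minus A1 log2 fold change in kidney minus that in liver. At an adjusted p below 0.05 in limma, 66 of the 202 genes differed between the tissues, 32.7%, where 17.7% of all 15275 genes and 22.8% of the 1847 genes with at least 20 RPKM in both tissues did. For 54 of the 66 genes the kidney value was above the liver value, and for 12 it was below. Over all genes 6.89% were called in the first direction and 10.8% in the second, and over the 1847 genes 14.2% and 8.61%. In 42 of the 66 genes the fold change was above 0 in kidney and below 0 in liver, in 9 the signs were the other way round, and in 15 they were the same in both tissues. These are 63.6%, 13.6% and 22.7% of the genes called in the set, against 23.03%, 43.4% and 31.99% of the 2701 called among all genes and 41.1%, 25.9% and 33.02% of the 421 called among the 1847 genes. The difference was at least 1 on the log2 scale in 23 genes, 34.8% of those called, against 27.2% over all genes. The median A2 minus A1 log2 fold change of the set was 0.10 in kidney and -0.08 in liver, where over all genes it was -0.02 and 0.06. Over the 1847 genes it was -0.05 in kidney and -0.04 in liver, so that the liver median was below 0 there too. With a liver library left out, the liver median of the set was -0.13 to -0.04. With median-of-ratios factors it was -0.20, where that of all genes was 0.01. The split was 69 against 7 genes with median-of-ratios factors, where 1590 against 1339 of all genes were called, and 58 against 11 with quantile-normalized values, where 1400 against 1205 were. Without liver A2-3 it was 38 against 8 genes, where 771 against 775 of all genes were called. With liver A2-1 in the fit it was 11 against 1, where 515 against 718 were, and the share called was then 5.94% of the set, below the 8.07% of all genes. The liver arm of A2 has 2 libraries only.

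**Figure D4:**
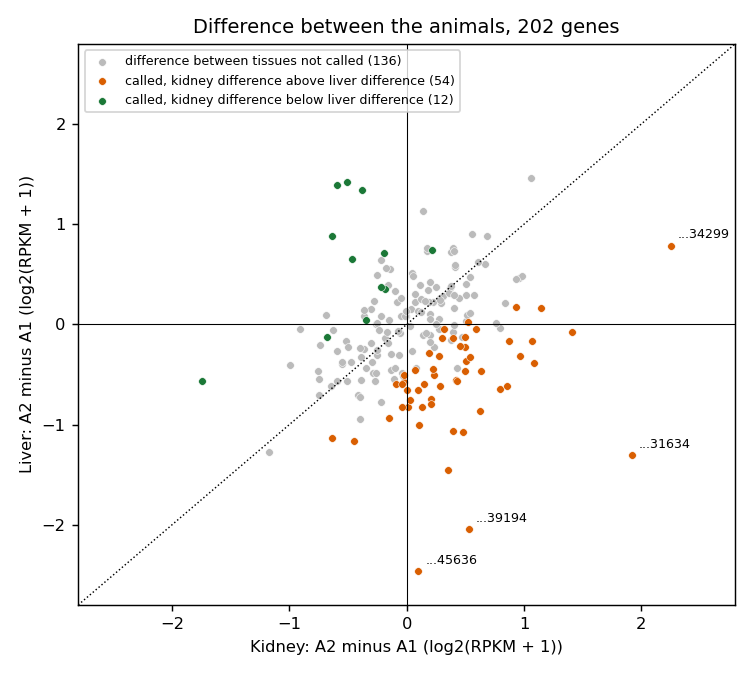
A2 minus A1 difference on the log2(RPKM + 1) scale of each of the 202 genes in kidney (x axis) and liver (y axis). Orange points are the 54 genes whose kidney difference was above their liver difference in limma at an adjusted p below 0.05, green points the 12 genes with the opposite order, grey points the other 136, and the dotted line marks equal differences.

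All 3 A2 kidney libraries lay above all 3 A1 kidney libraries for 70 of the 202 genes, where 16.7% of all genes did so, and below them for 51, where 19.3% did. In liver both A2 libraries lay above the 3 A1 libraries for 66 genes, where 33.4% of all genes did, and below them for 89, where 18.1% did. One gene outside the set was, at low levels, higher in A2 in liver and higher in A1 in kidney. The gene with the highest value in liver A2-1 had 41.7 and 49.6 RPKM in liver A2-2 and A2-3 against at most 0.084 RPKM in liver of A1, and 35.6 to 61.7 RPKM in kidney of A1 against 0.081 and 0.096 RPKM in kidney A2-1 and A2-3 and 17.97 RPKM in kidney A2-2. These values are at most 0.0336% of its level of 183894 RPKM in liver A2-1, and their part in the differences between the animals was not tested.

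In brain the A2 minus A1 fold change was above 0 for 143 of 202 (70.8%) and for 46.1% of all genes, with a median of 0.13 against -0.02. Over the 1847 genes with at least 20 RPKM in kidney and in liver, it was above 0 for 55.0%, with a median of 0.03. Among genes with a brain mean of at least 1 RPKM it was above 0 for 64.96% of the 137 in the set and for 44.8% of all. Without brain A2-2, 65.8% of the set were above 0, and without brain A2-3 64.4%. The medians of the set were then 0.11 and 0.14, against -0.02 and -0.02 over all genes. Within the set, the gene with the largest called brain difference had 0.8 to 1.1 RPKM in A1 and 6.3 to 7.8 RPKM in A2, against kidney and liver levels of 285 to 650 RPKM. The 73 genes with a brain median below 1 RPKM summed to 15.99, 18.03 and 20.8 RPKM in the A1 brain libraries and to 29.6, 55.8 and 34.2 RPKM in A2-1, A2-2 and A2-3. Brain A2-2 was the highest of the 6 brain libraries for 28 of these 73 genes (38.4%) and brain A2-3 for 22 (30.1%). Over the 2148 tested genes with a brain median below 1 RPKM, which include the 73, these libraries were the highest for 23.1% and 14.8%. The shares are a description with no test. For 4 of the 73 genes brain A2-2 was at least 5-fold above the other 5 brain libraries at 0.5 RPKM or more, ENSMFAG00000031634 (0.661 RPKM) and ENSMFAG00000039194 (1.84 RPKM) among them, and the highest of these 4 values was 11.04 RPKM.

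Genes of a single organ were compared in the same way. For 178 genes at least 8-fold higher in liver than in both other tissues with a brain median below 1 RPKM, the sum was 102.8 RPKM in brain A2-2 and 30.3 to 34.2 RPKM in the other 5 brain libraries. For 141 such genes of kidney it was 78.8 RPKM in brain A2-2, 75.4 RPKM in brain A2-3 and 28.8 to 45.7 RPKM in the other 4. One of these 141 genes was the gene highest in liver A2-1, with 23.2 RPKM in brain A2-2 and at most 0.426 RPKM in the other brain libraries. Without it the sum was 55.7 RPKM in brain A2-2, 75.04 RPKM in brain A2-3 and 28.8 to 45.3 RPKM in the other 4. No gene was left out of the 178 liver genes. By sum, brain A2-2 was thus the highest for the liver genes, but not for the kidney genes once this gene was left out. Of the 141 kidney genes, 12 reached 1 RPKM in brain A2-2, 10 in brain A2-3 and 1 to 9 in the other 4. Brain A2-2 had the lowest depth of the brain libraries, 0.343 against 0.935 to 1.08. The part of depth in these low brain values was not tested.

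The rule did not use liver A2-1, in which the set was below the other livers, as were other genes of liver. The share of summed RPKM in the 202 genes was 0.733% in this library, between brain and kidney, and the median of the set was 8.62 RPKM against 79.4 to 96.5 RPKM in the other 5 liver libraries. The log2 ratio of liver A2-1 to the median of the other livers, on the log2(RPKM + 1) scale, had a median of -3.66 over the 202 genes with quartiles of -5.45 and -1.97. For the 256 genes at least 8-fold higher in liver than in both other tissues it was -6.17, a larger fall than in the set. Over the 2298 genes with a liver median of at least 20 RPKM the median was -0.59, and over all 15275 genes 0.15. Liver A2-1 was below all 5 other liver libraries for 186 of the 202 genes, where 27.2% of all genes were, and at least 8-fold below their median for 126 genes, where 9.27% of all genes and 22% of the genes with a liver median of at least 20 RPKM were. The 202 genes also did not keep their order, with a Spearman correlation across genes of 0.18 between liver A2-1 and the median of the other livers, against at least 0.91 between any 2 of the other livers.

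The ratios differed widely within the set. The gene with the largest drop had 1995 to 2016 RPKM in liver of A1, 1241 and 1161 RPKM in liver A2-2 and A2-3, and 0.256 RPKM in liver A2-1. The most abundant gene of the set had 3.17 RPKM there, and 8 genes were at 0. In contrast, 9 genes were above all 5 other livers, the highest of them at 247.5 RPKM against 26.3 to 30.7 RPKM, and the next at 241.7 RPKM against 24.7 to 36.2 RPKM. In all, 66 genes reached 20 RPKM in liver A2-1, and 55 of the 194 genes with a brain median above 0 were at least 8-fold over it, of which 34 met both conditions. Of the 8 genes with a brain median of 0, 3 were also at 0 in liver A2-1. The ratio varied with the brain level, though not in order. Its median was -6.32 for the 8 genes with a brain median of 0 and -4.95 for the 65 genes up to 1 RPKM, against -3.05 for the 75 genes from 1 to 5 RPKM, -2.83 for the 41 genes from 5 to 20 RPKM and -4.08 for the 13 genes at 20 RPKM or more. One library without a replicate allows no test of these ratios.

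**Figure D5:**
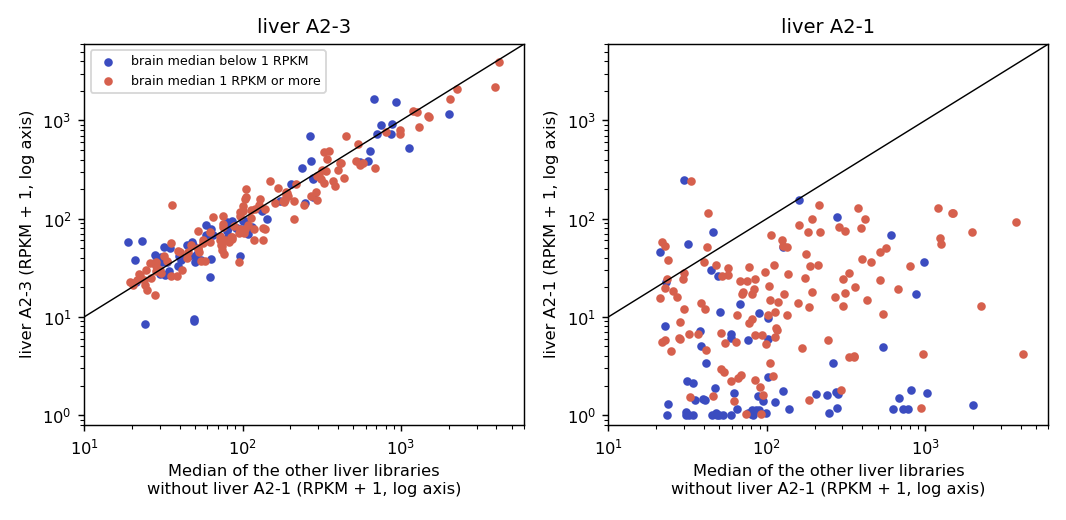
RPKM + 1 of each of the 202 genes in liver A2-3 (left) and liver A2-1 (right) on the y axis against the median of the other liver libraries except liver A2-1 on the x axis, all on log axes, with the line of equal values. Genes follow the line in liver A2-3, while in liver A2-1 most lie below it, with a median log2 ratio of -3.66, and 9 lie above all 5 other livers.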

How the data were processed

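Gene expression was measured by RNA-Seq in 18 libraries of brain, kidney and liver from 2 cynomolgus monkeys. The authors used STAR for alignment, with Ensembl version 92 as the reference, and deposited 1 table of RPKM values per gene and library, with replicates not pooled. Cufflinks and featureCounts are both named in the study's methods, and which made the RPKM is not stated. Library kits are described differently in the labels (not strand-marking by name) and in the methods (stranded). Columns were matched to samples by the sample descriptions, and 0 other columns of per-sample values were present.

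RPKM are not counts. The log2(RPKM + 1) values therefore went into limma (version 3.58.1, R 4.3.3), with moderated variances that follow a trend in mean level, on 17 libraries without liver A2-1. Benjamini-Hochberg adjustment ran over all 15275 genes. The fits were tested on simulated data in which the changes between the animals were equal in kidney and liver. The detection of a difference between these tissues was therefore not tested. RPKM hold no depth of their own. Relative depths were taken from the most frequent ratio of low values of 2 libraries, a step also tested on simulated data. They give no intervals for single values. The precision is therefore given by the spread between samples.

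The members, the thresholds and the gene lists were chosen with earlier results of these data known. The 14 gene lists, the cell type markers and the promoter features that had been planned were not analysed, as no identifier matched. The 4 genes named were picked from the 5 largest calls of the set in each of kidney and liver. They were the 2 with the largest rise and the 2 with the largest fall from A1 to A2. Genes described by rank were picked after their values were seen. The alternatives were other scalings, pseudocounts, filters, limits of the rule, a replicate block, all 18 libraries and each library left out.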

Additional observations from a re-analysis of the deposited data

Results flagged for a closer look

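In 21 groups of 6 libraries, 7 measures in each of 3 tissues, the gap between the highest or lowest library and the nearest of the others was set against the whole range. It was above Dixon's critical value at the 95% level in 5 groups. Chance flags about 1 in 20 independent groups, but these measures overlap, and 3 of the 5 concern liver A2-1, which had already been left out for standing apart, so that their number supports nothing. Liver A2-1 was the lowest liver library in the share of summed RPKM in the 202 genes (0.733%), in their median (8.62 RPKM) and in the sum of the 73 genes with a brain median below 1 RPKM (1026 RPKM). Brain A2-2 was the highest brain library for ENSMFAG00000031634 (0.661 RPKM) and for ENSMFAG00000039194 (1.84 RPKM).

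The difference between the animals was not the same in kidney and liver for 66 of the 202 genes (limma, adjusted p below 0.05), 32.7%, where 17.7% of all genes were called. With liver A2-1 in the fit 12 were called, 5.94%, below the 8.07% of all genes. The 4 genes named by identifier had been picked for the largest rises in kidney and falls in liver, so that a difference above 0 largely follows from that choice. The A2 minus A1 log2 fold change in kidney exceeded that in liver by 1.46 for ENSMFAG00000034299, 3.22 for ENSMFAG00000031634, 2.56 for ENSMFAG00000045636 and 2.57 for ENSMFAG00000039194. With liver A2-1 in the fit the limma adjusted p of ENSMFAG00000034299 was 0.15 at a difference of 3.27, and with a pseudocount of 0.1 RPKM that of ENSMFAG00000039194 was 0.098 at a difference of 2.69.

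Liver A2-1, which the comparisons left out, had a median log2 ratio to the other livers of -3.66 over the 202 genes.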

How the results depend on the processing

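The number of genes meeting the rule was 334 with 4-fold and 129 with 16-fold over brain, and 198 to 208 with any 1 of the 17 libraries left out. On rescaled values the rule gave 234 genes with median-of-ratios factors and 261 with quantile normalization, 163 and 190 of them among the 202. Of the 234 genes, 59 were higher in kidney, of the 261 genes 109 were, and the median log2 ratio of kidney over liver was -0.63 with those factors and -0.17 with quantile-normalized values, against 87 to 101 genes and -0.14 to -0.03 with a library left out. In limma with all 18 libraries, 2, 2 and 12 genes of the set were called in brain, in kidney and between kidney and liver, and 215, 258 and 1233 of all genes. With a pseudocount of 0.1, 28 genes of the set were called in brain, and 650, 743 and 1143 of all genes in brain, kidney and liver. With a library left out, the set had 7 to 12 calls in brain, 9 to 12 in kidney, 10 to 16 in liver and 46 to 73 between the tissues, and all genes had 261 to 320, 368 to 418, 428 to 559 and 1546 to 3062, the 1546 without liver A2-3. Where this left 1 liver library of A2, it was assumed to vary like the other groups. The sources used here do not say what sample numbers 1 to 3 stand for, and same-numbered samples of A1 and A2 deviated with correlations from -0.15 to 0.21. With the number as a replicate block, 8, 9, 15 and 66 genes of the set were called in brain, kidney, liver and between the tissues, as many as without it. The median log2 ratio of liver A2-1 was -3.94 with median-of-ratios factors and -3.37 against the A2 livers alone. The causes of these changes were not tested. Low depth widens the counting error of the low brain values, which RPKM do not allow to be given.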
